A study of Mus musculus with 4 samples.

Results

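Genes that bring glucose into heart muscle cells and that store it as glycogen were compared between hearts of wild-type and heterozygous mice. The set held 7 genes, Slc2a4, Slc2a1, Hk1, Hk2, Gys1, Pygm and Ugp2, chosen by gene symbol among the 8252 genes named on the array. The choice was made with earlier results of these data known, so shares over all probe sets are given for scale only. They had 9 of its 12488 probe sets, and 7 of these, 1 per gene, were bright enough to be tested among 7453 probe sets. The animals were adult males 8 to 16 weeks old on a mixed 129/Black Swiss background, and total RNA came from whole hearts. Each genotype was represented by 2 samples, each a pool of 5 hearts; the gene in the heterozygous state is left unnamed here. The labels do not say that the pools came from different animals, so p-values measure only the spread between these 4 pools, which may be partly technical. In whole tissue, a lower signal from fewer cells of a type cannot be told apart from less RNA in each cell. Likewise, a higher signal from a larger share of a cell type cannot be told apart from more RNA in each cell.

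Glucose enters heart muscle through facilitative transporters. GLUT4, encoded by Slc2a4, is stored in vesicles and moves to the cell surface when insulin or contraction calls for it. GLUT1, encoded by Slc2a1, sits at the surface at rest and is abundant in endothelium. Hexokinases trap the sugar as glucose 6-phosphate, and Hk2 is the insulin-regulated form of muscle while Hk1 is expressed in most tissues. Glucose 6-phosphate then goes to glycolysis or, by way of glucose 1-phosphate and UDP-glucose (made by the product of Ugp2), to glycogen synthase (Gys1); muscle glycogen phosphorylase (Pygm) releases it again.

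Of the 7 genes, 5 rose in the heterozygous pools (Slc2a4, Hk2, Gys1, Pygm and Ugp2), 1 fell (Hk1) and 1 did not pass (Slc2a1). Over all tested probe sets 17.9% were called higher and 20.4% lower, so 38.3% differed at an adjusted p under 0.05. The median log2 change was 0.85 over the 7 genes and 0.00 over all tested probe sets. The split was the same under 3 of the 4 other array scalings tried. Centring arrays on cardiac sarcomere genes lowers every value alike. With it, 3 passed as higher (Slc2a4, Gys1 and Pygm) and 2 as lower (Hk1 and Slc2a1). Over all 7453 tested probe sets, 158 were called higher and 4351 lower in that setting. Pools of the genotypes did not overlap for 6 of the 7, 5 higher and 1 lower, against 70.1% of tested probe sets, 34.6% higher and 35.5% lower. Changes are log2 values, heterozygous minus wild type, with limma's standard error (SE), folds are computed from them, and signals are deposited linear intensities with a standard deviation (SD) over pools. Each probe set has its own sensitivity, so levels are compared between genotypes and not between genes.

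**Figure D1:**
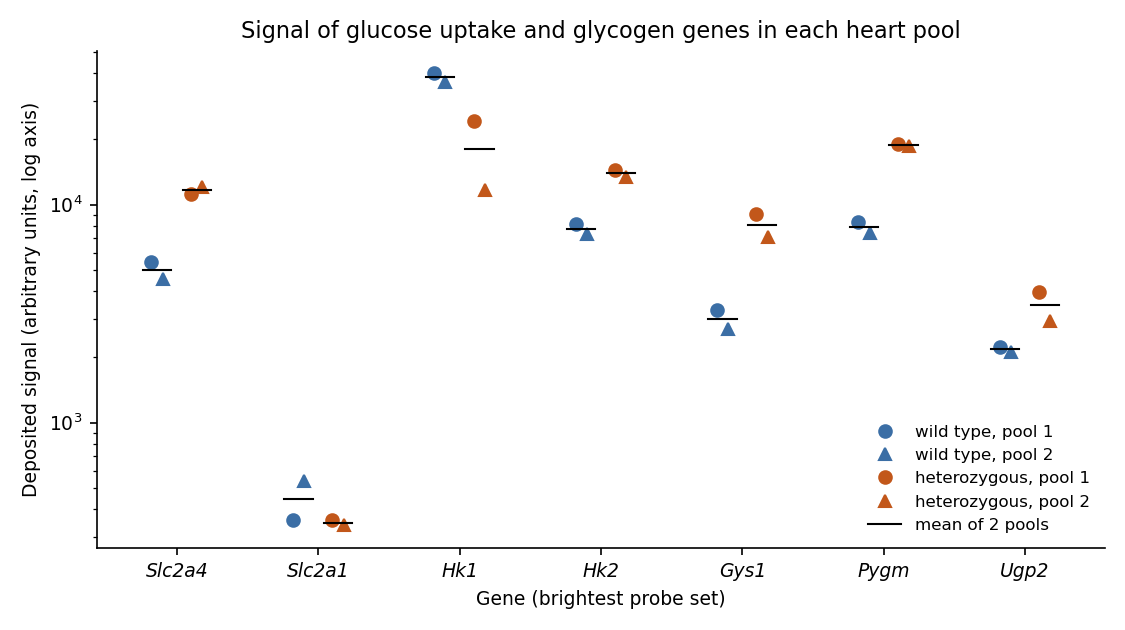
Deposited signal (arbitrary units, log axis) of the tested probe set of each of the 7 genes, with 1 symbol per pool of 5 hearts and a bar at the mean of the 2 pools of a genotype; heights are comparable within a gene and not between genes. The pools of the genotypes do not overlap for Slc2a4, Hk1, Hk2, Gys1, Pygm and Ugp2, and they overlap for Slc2a1.

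Upstream sequences are shown for 3 of the 5 genes that rose (Gys1, Pygm and Hk2) and for Hk1, which moved the opposite way from Hk2. Each line gives the 250 bases before a RefSeq transcription start on GRCm38.p6, 5′ to 3′ on the gene's strand. Capitals mark GC boxes (GGGCGG on either strand), CCAAT boxes (CCAAT on either strand) and E-boxes (CANNTG, the same on both strands). No capital run below is shared by 2 motifs. The windows are chr7:45434589-45434838 (plus strand) for Gys1, chr19:6384158-6384407 (plus strand) for Pygm and chr6:82774455-82774704 (minus strand) for Hk2. Hk1 has 2 listed starts, with windows at chr10:62379909-62380158 (start A) and chr10:62340422-62340671 (start B), both on the minus strand.
Gys1: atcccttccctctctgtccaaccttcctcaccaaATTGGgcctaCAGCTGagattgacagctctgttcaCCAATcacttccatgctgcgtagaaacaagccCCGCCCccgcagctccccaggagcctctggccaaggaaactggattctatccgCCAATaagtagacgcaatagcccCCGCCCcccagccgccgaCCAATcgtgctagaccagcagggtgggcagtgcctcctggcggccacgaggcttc
Pygm: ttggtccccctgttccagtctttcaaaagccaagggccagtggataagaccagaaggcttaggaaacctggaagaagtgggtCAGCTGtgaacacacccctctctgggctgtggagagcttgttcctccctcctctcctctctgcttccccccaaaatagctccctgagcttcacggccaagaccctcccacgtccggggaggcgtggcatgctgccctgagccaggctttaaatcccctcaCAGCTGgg
Hk2: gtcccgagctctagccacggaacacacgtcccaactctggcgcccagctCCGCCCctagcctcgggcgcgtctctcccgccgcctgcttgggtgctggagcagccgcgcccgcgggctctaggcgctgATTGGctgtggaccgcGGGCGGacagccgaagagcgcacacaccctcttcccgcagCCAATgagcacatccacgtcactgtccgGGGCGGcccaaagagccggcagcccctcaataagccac
Hk1 start A: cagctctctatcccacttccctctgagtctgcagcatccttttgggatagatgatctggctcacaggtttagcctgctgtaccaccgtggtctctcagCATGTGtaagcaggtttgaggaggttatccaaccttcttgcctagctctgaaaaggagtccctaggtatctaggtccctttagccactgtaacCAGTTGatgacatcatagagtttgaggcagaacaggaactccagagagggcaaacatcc
Hk1 start B: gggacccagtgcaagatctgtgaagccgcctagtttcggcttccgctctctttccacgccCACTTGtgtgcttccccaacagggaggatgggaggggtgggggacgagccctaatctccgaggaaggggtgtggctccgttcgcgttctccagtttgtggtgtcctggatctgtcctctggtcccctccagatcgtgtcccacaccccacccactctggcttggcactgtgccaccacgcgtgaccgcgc

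The Gys1 window held 4 CCAAT boxes, 2 GC boxes and 1 E-box, and the Hk2 window held 2 CCAAT boxes and 3 GC boxes without an E-box. The Pygm window held 2 E-boxes, both spelled CAGCTG, and neither of the other motifs. The Hk1 windows held E-boxes alone, 2 before start A and 1 before start B. Their GC content was 49.6% before start A and 62.8% before start B, against 69.6% for Hk2. Among 32841 mouse promoter windows of the same length, 32.7% held a GC box, 33.9% a CCAAT box and 66.2% an E-box. No window of these 4 genes matched a TATA box (TATAAA, either strand), found in 12.4% of all windows, or the MEF2 consensus, found in 2.9%. Ugp2, which also rose, has 2 windows, not printed, with 2 and 1 GC boxes, 0 and 1 CCAAT boxes and 1 E-box each. Promoter windows were found for 6 of the 7 genes and not for Slc2a4, so no motif was sought before that gene. These are matches of letters, not measured binding.

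Slc2a4, the insulin-responsive transporter, had signals of 5468.7 and 4570.1 in the wild type and 11245.5 and 12110.3 in the heterozygous pools. Both heterozygous pools lay above both wild-type pools, and the lower of them was 2.06 times the higher wild-type pool. Slc2a4 rose 2.33-fold as its level went from 5019 ± 635 to 11678 ± 612 (SD, n = 2), with a log2 change of 1.22 (SE 0.15) and a limma adjusted p of 4.0e-04. The change was at the 97.8th percentile of all tested probe sets. It passed under each of the 16 other ways of analysis, with log2 changes of 0.50 to 1.36, the lowest of them with arrays centred on sarcomere genes. A second Slc2a4 probe set was too dim to test, at 63.7 and 89.3 in the wild type and 21.4 and 66.5 in the heterozygous pools, against a floor of 36.25 set for dim signals.

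Slc2a1, the transporter active at rest, had signals of 356.2 and 536.7 in the wild type and 356.4 and 338.0 in the heterozygous pools. Wild-type pool 2 stood above the other 3 pools, which lay close together. The log2 change was -0.33 (SE 0.35, 95% interval -1.12 to 0.46, limma adjusted p = 0.489), and -0.04 without wild-type pool 2 (-0.63 without wild-type pool 1). This probe set was dim, at the 42.5th percentile of mean signal where probe sets under the 40th were not tested. The interval leaves out a rise as large as that of Slc2a4 (1.22). With arrays centred on sarcomere genes the value was -1.05 and passed as lower, as did 4351 of the 7453 tested probe sets.

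The hexokinases moved in opposite directions. Hk2, the muscle form, had signals of 8108.2 and 7364.8 in the wild type and 14354.0 and 13452.3 in the heterozygous pools. The pools of a genotype lay close together, and the genotypes were well apart. Hk2 rose 1.80-fold as its level went from 7736 ± 526 to 13903 ± 638 (SD, n = 2), with a log2 change of 0.85 (SE 0.14) and a limma adjusted p of 0.00161. The log2 change was 0.13 and did not pass with arrays centred on sarcomere genes. A second Hk2 probe set lay below the floor in all 4 pools, with signals of 3.5 to 13.5, and carries no level.

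Hk1, the form found in most tissues, had signals of 40038.9 and 36621.9 in the wild type and 24220.0 and 11667.6 in the heterozygous pools. Both heterozygous pools lay below both wild-type pools, but heterozygous pool 1 was 2.08 times heterozygous pool 2, while the wild-type pools differed 1.09 times. Hk1 fell 2.28-fold as its level went from 38330 ± 2416 to 17944 ± 8876 (SD, n = 2), with a log2 change of -1.19 (SE 0.28) and a limma adjusted p of 0.0103. The gap between the heterozygous pools was at the 97.6th percentile of such gaps over tested probe sets. Without heterozygous pool 2 the log2 change was -0.66 and did not pass (adjusted p = 0.0560), and without heterozygous pool 1 it was -1.71. The call was also lost with dim probe sets kept in the fit (limma adjusted p = 0.203) and at a threshold of 0.01. The value stayed below 0 under each scaling, from -1.91 to -1.06.

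In the glycogen pair, synthase and phosphorylase both rose. Gys1, which extends the glycogen chain, had signals of 3286.8 and 2674.8 in the wild type and 9026.4 and 7120.8 in the heterozygous pools. The lower heterozygous pool was 2.17 times the higher wild-type pool. Gys1 rose 2.70-fold as its level went from 2981 ± 433 to 8074 ± 1347 (SD, n = 2), with a log2 change of 1.44 (SE 0.18) and a limma adjusted p of 4.2e-04, and ranked 83rd from the top among 7453 tested probe sets. It passed in each of the 16 other ways of analysis, with log2 changes of 0.72 to 1.61. Of the probe sets tested, 5.13% were called higher with at least a 2-fold change, Gys1, Pygm and Slc2a4 among them, and 11.7% were called lower by that much, Hk1 among them.

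Pygm, which cleaves glucose units from the chain, had signals of 8355.8 and 7431.6 in the wild type and 18931.7 and 18608.7 in the heterozygous pools. The heterozygous pools differed 1.02 times, and the lower was 2.23 times the higher wild-type pool. Pygm rose 2.38-fold as its level went from 7894 ± 654 to 18770 ± 228 (SD, n = 2), with a log2 change of 1.25 (SE 0.13) and a limma adjusted p of 2.1e-04. It passed in each of the 16 other ways of analysis as well, at 0.53 to 1.38.

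Ugp2, which makes the UDP-glucose that glycogen synthase uses, had signals of 2223.5 and 2107.0 in the wild type and 3991.9 and 2933.9 in the heterozygous pools. The pools did not overlap, but heterozygous pool 2 was nearer to the wild type. Ugp2 rose 1.58-fold as its level went from 2165 ± 82.4 to 3463 ± 748 (SD, n = 2), with a log2 change of 0.66 (SE 0.19) and a limma adjusted p of 0.0216. It did not pass at a threshold of 0.01. The call ended without wild-type pool 2 (0.62), without heterozygous pool 1 (0.44), with dim probe sets kept in the fit and without a mean-variance trend, and the value was -0.06 with arrays centred on sarcomere genes.

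**Figure D2:**
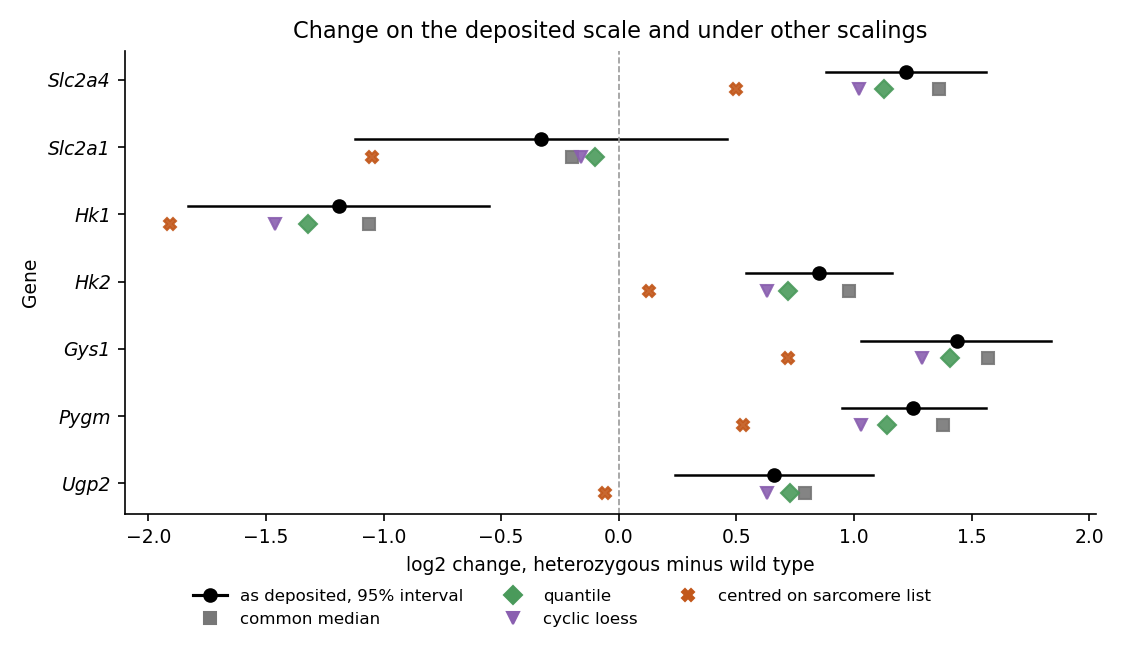
Log2 change, heterozygous minus wild type, of each gene on the deposited scale (black, with limma's 95% interval) and with arrays scaled 4 other ways (coloured symbols). Centring on sarcomere genes moves every gene to the left, leaving Slc2a4, Gys1 and Pygm above 0 at 0.50, 0.72 and 0.53 and Hk2 and Ugp2 near 0 at 0.13 and -0.06.

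Ratios of 2 genes on the same array do not depend on a scaling factor per array; their size says nothing of which gene is more abundant, and only their difference between genotypes is read. The log2 ratio of Slc2a4 to Slc2a1 was 3.94 and 3.09 in the wild type and 4.98 and 5.16 in the heterozygous pools, a rise of 1.56 in the mean. The ratio of Hk2 to Hk1 was -2.30 and -2.31 in the wild type and -0.75 and 0.21 in the heterozygous pools, 2.03 higher in the mean. In both pairs the muscle form gained on the other form in each heterozygous pool. With 1 pool left out at a time, the difference ran from 1.13 to 1.98 for Slc2a4 to Slc2a1. For Hk2 to Hk1 it ran from 1.55 to 2.51. The ratio of Gys1 to Ugp2 was 0.56 and 0.34 against 1.18 and 1.28, a difference of 0.77. That of Gys1 to Pygm overlapped between genotypes, with -1.35 and -1.47 against -1.07 and -1.39, a difference of 0.18. In an exact two-sided permutation test the smallest p that 2 pools against 2 can give is 1 in 3. That value was reached by the 3 ratios without overlap, the p for Gys1 to Pygm was 0.667, and so none of these differences could pass a threshold of 0.05.

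**Figure D3:**
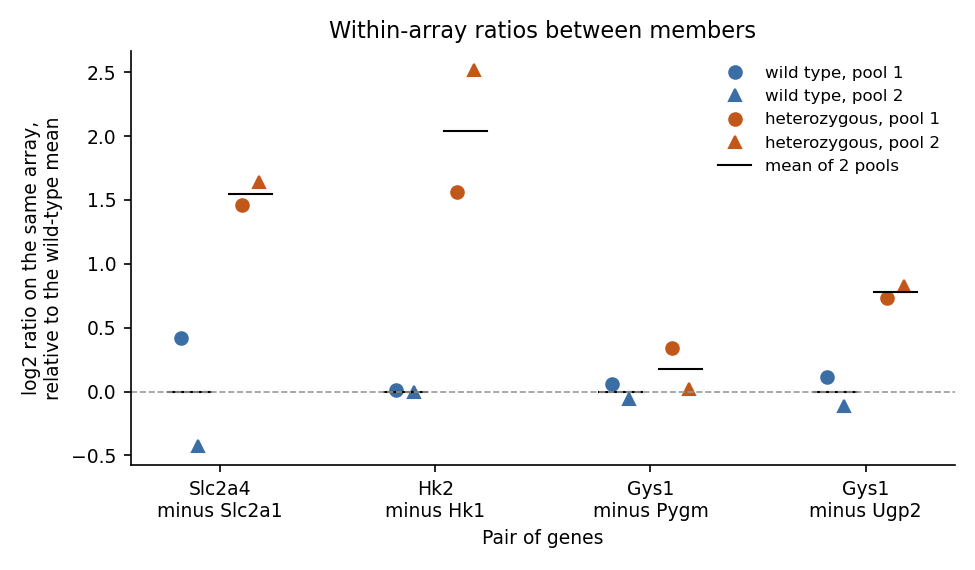
Log2 ratio of 2 genes on the same array, relative to the mean of the wild-type pools, with 1 symbol per pool and a bar at the mean of 2 pools. Heterozygous pools lie above both wild-type pools for Slc2a4 to Slc2a1, Hk2 to Hk1 and Gys1 to Ugp2, and overlap for Gys1 to Pygm.

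Other genes of glucose uptake and glycogen were read from a list of 93 symbols, of which 58 were on the array and 45 were tested on their brightest probe set. Of these 45, 14 rose, 5 fell and 26 did not pass; their log2 changes had a median of 0.45. Over the brightest probe sets of all 5692 tested genes, 19.5% were called higher and 19.5% lower (39.0% in all), and the median was 0.02. Over all tested probe sets, higher calls made up 46.8% of the calls on the deposited scale. That share was 58.5% with arrays shifted to a common median and 3.50% with arrays centred on sarcomere genes. In the list the same shares were 73.7%, 91.7% and 11.1% (2 of 18 calls). Calls numbered 10 without heterozygous pool 2 and 9 with dim probe sets kept in the fit.

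Among 7 tested genes of glycogen synthesis and branching, 1 rose, 1 fell and 5 did not pass. The share called was 28.6%, against 39.0% of all tested genes. Pgm1, the phosphoglucomutase that links glucose 6-phosphate and glucose 1-phosphate, rose 1.82-fold, from signals of 7099.0 and 6777.6 to 13025.2 and 12261.1 (log2 change 0.87, SE 0.13, limma adjusted p = 0.00135; 0.15 and not passing with arrays centred on sarcomere genes). Ppp1cc, a catalytic subunit of protein phosphatase 1, fell 1.41-fold (log2 change -0.50, limma adjusted p = 0.0329), a call that ended in 7 of the 16 other ways of analysis, among them those without wild-type pool 2 (-0.35), without heterozygous pool 1 (-0.48) and without heterozygous pool 2 (-0.52). Gyg, the self-glucosylating primer of glycogen, had a log2 change of 0.38 on its brighter probe set (limma adjusted p = 0.0809) and passed as higher on the other (0.68, limma adjusted p = 0.0181); the brighter one passed with a common median (0.51). The bright genes Gsk3a, a kinase that holds glycogen synthase in check, and Ppp1cb had log2 changes of -0.19 and 0.16 that did not pass. Gsk3a passed as lower under cyclic loess (-0.45) and sarcomere centring (-0.91), and Ppp1cb under sarcomere centring (-0.56).

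Among 8 tested genes of glycogen breakdown and its control, 4 rose, none fell and 4 did not pass. The share called was 50.0%, against 39.0% of all tested genes. Pygb, the phosphorylase form named for brain, had signals of 4182.2 and 3449.8 in the wild type and 9854.6 and 9283.7 in the heterozygous pools, a 2.52-fold rise (log2 change 1.33, SE 0.15, limma adjusted p = 2.9e-04). Both phosphorylase genes measured here, Pygm and Pygb, thus rose. Prkaca, the catalytic subunit of protein kinase A, whose signal activates phosphorylase, rose 2.60-fold, from 1923.0 and 1927.8 to 4386.9 and 5692.3 (log2 change 1.38, SE 0.17, limma adjusted p = 4.9e-04). Its regulatory subunit Prkar1a rose 1.68-fold (log2 change 0.75, limma adjusted p = 0.00183; 0.03 with arrays centred on sarcomere genes). Pygb and Prkaca passed in each of the 16 other ways of analysis. Phkg1, the catalytic subunit of muscle phosphorylase kinase, was the other gene that rose (log2 change 0.87, limma adjusted p = 0.0239), and is named here after its value was seen. Gaa, the lysosomal enzyme that degrades glycogen, read 4423.1 and 4283.0 against 4966.8 and 10126.4, with heterozygous pool 2 far above the rest, and did not pass (log2 change 0.70). It passed without heterozygous pool 1 (1.22, limma adjusted p = 0.0117) and with a common median (0.84), and was 0.19 without heterozygous pool 2. Phkg2 did not pass either (0.12).

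Of 22 tested genes that relay insulin or contraction signals to glucose transport, 6 rose, 3 fell and 13 did not pass. The share called, 40.9%, was near the 39.0% of all tested genes. Vamp2, a vesicle protein that lets GLUT4 vesicles fuse with the surface, rose 2.18-fold, from signals of 1545.4 and 1335.9 to 3153.0 and 3103.4 (log2 change 1.12, SE 0.17, limma adjusted p = 0.00106). Rab10, a small GTPase of GLUT4 vesicle traffic, rose 1.88-fold on its brighter probe set (log2 change 0.91, limma adjusted p = 0.00306), while its other probe set had a log2 change of -0.25 (limma adjusted p = 0.364). Both calls ended with arrays centred on sarcomere genes (0.40 and 0.19), and that of Rab10 also with dim probe sets kept in the fit. Pdpk1, the kinase that activates Akt, fell 2.26-fold, from 5392.9 and 4578.5 to 2159.9 and 2247.3 (log2 change -1.17, SE 0.16, limma adjusted p = 6.9e-04), and passed in each of the 16 other ways of analysis. The other genes that fell were Ptpn1, a phosphatase that damps the insulin receptor (-0.79), and Rab8a (-0.55). The other genes that rose were Cav3, the muscle caveolin (0.79), Akt2, the Akt form of insulin-driven glucose uptake (0.74), Flot1 (0.60) and Vamp3 (0.55). These 6 are named here after their values were seen. Rhoq, a bright gene that did not pass, had a log2 change of 0.65, which was 0.25 without wild-type pool 1. It passed as higher without wild-type pool 2 (1.06, limma adjusted p = 0.00409), with a common median (0.79) and with the replicate number as a block (limma adjusted p = 0.0183). Stx4a, the other bright gene that did not pass, had a log2 change of -0.01, and passed as lower with arrays centred on sarcomere genes (-0.73).

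Of 7 tested transcription factors known to act on Slc2a4 or Hk2, 3 rose, 1 fell and 3 did not pass. The share called was 57.1%, against 39.0% of all tested genes. Thra, a thyroid hormone receptor, rose 1.88-fold (log2 change 0.91, limma adjusted p = 0.00235), and Mef2a, which binds the Slc2a4 promoter, rose 1.64-fold (0.71, limma adjusted p = 0.00496). Mef2c, a paralog of Mef2a named here after its value was seen, rose on its brightest probe set (0.88, limma adjusted p = 0.0344), and on another (1.15, limma adjusted p = 0.0347), while the value on the remaining bright one was 0.12 and did not pass. A Mef2c probe set too dim to test read 248.5 and 263.4 against 217.7 and 218.3. A dimmer Thra probe set did not pass either (0.90, limma adjusted p = 0.0797). With arrays centred on sarcomere genes the values of Thra and Mef2a were 0.19 and -0.01, and the Mef2a call also ended without heterozygous pool 2 (0.68). Hif1a, the hypoxia factor that induces Hk2 and Slc2a1, fell 1.60-fold on its brighter probe set (-0.68, limma adjusted p = 0.0203) and 1.67-fold on the other (-0.74, limma adjusted p = 0.00246). The call on the brighter probe set was lost in 7 of the 16 other ways of analysis, among them those without the first wild-type pool (-0.47), without the first heterozygous pool (-0.88), without the second (-0.48) and with a common median (-0.55). Mef2d and Srebf1 had log2 changes of -0.23 and -0.17 that did not pass. Mef2d passed as lower under 3 of the 4 other scalings, at -0.39 (quantile), -0.48 (cyclic loess) and -0.95 (sarcomere centring), and Srebf1 under the last of these (-0.89). Of the other facilitative transporters, Slc2a8 alone was bright enough to test (0.52, limma adjusted p = 0.0629), and it passed as higher under 3 scalings, at 0.60 to 0.66.

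**Figure D4:**
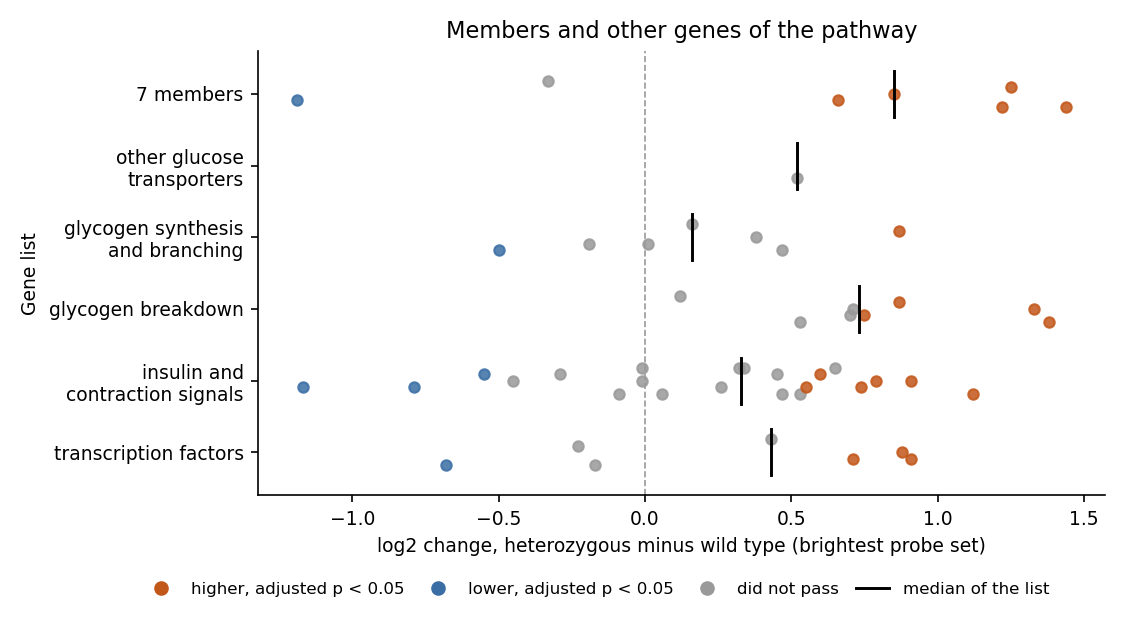
Log2 change, heterozygous minus wild type, of the 7 members and of the 45 other tested genes by group, on the brightest probe set of each gene; colours give the call at an adjusted p under 0.05 and black bars the median. The medians run from 0.16 for glycogen synthesis and branching to 0.73 for glycogen breakdown, beside 0.85 for the members.

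Array-wide, log2 signals correlated at 0.971 between the wild-type pools, 0.970 between the heterozygous pools and 0.845 to 0.856 across genotypes, over probe sets, which are not independent replicates. Markers of cell types differed between the genotypes in the same pools. Every marker count below stands beside 19.5% called higher and 19.5% called lower over all tested genes. All 13 tested lymphocyte and thymus markers fell, their summed signal being 134702 to 136083 in the wild type and 17073 to 17428 in the heterozygotes, and all 10 markers of dividing cells fell. Of 18 cardiac sarcomere markers, led by Myh6, Myl2 and Tnni3, 14 rose and none fell, with a median log2 change of 0.67 and sums of 592470 to 657593 against 954868 to 985102. Myh6, Myl2 and Tnni3 were bright in all 4 pools, as the heart label implies. The wild-type pools also gave bright signals for lymphocyte and thymus genes. Rag1, the brightest of these on average, read 25556 and 28828.2 in the wild type and 3183.4 and 3250.8 in the heterozygous pools. Marker lists, and genes named after their values were seen, were read on the deposited scale alone, while sarcomere centring lowers each value alike and moves the median of all tested probe sets to -0.72. No marker on any list was below the floor in all 4 pools.

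Single sarcomere markers ranged from 0.20 for Tpm1 to 1.88 for Ldb3 in log2 change, and the next highest was Mybpc3 at 1.07. The changes of Hk2 and Ugp2 (0.85 and 0.66) lay between those of Tpm1 and Mybpc3. Those of Slc2a4, Gys1 and Pygm (1.22, 1.44 and 1.25) lay above Mybpc3 and below Ldb3 alone. Hk1 and the lymphocyte and thymus sum were both lower in the heterozygous pools than in the wild type. Between heterozygous pools 1 and 2 Hk1 differed 2.08 times, and the sums were 17428 and 17073. Endothelial markers, a cell type rich in GLUT1, were higher in 8 of 9 cases (median log2 change 0.96; sums of 11313 to 11485 against 22828 to 24340), and erythroid markers in 2 of 3 (median 0.90; 128768 to 144193 against 160908 to 176784). Hba-a1, which gave most of the erythroid sum, had a log2 change of 0.23 that did not pass, and neither did Pecam1 of the endothelial list (0.45). Of 6 adipocyte markers, whose cells also use GLUT4, 1 rose, 1 fell and 4 did not pass, among them Adipoq at 0.07 (sums of 58190 to 61922 against 81769 to 82628). The one that rose was Lpl, which heart muscle also expresses and which gave most of the sum. Lpl read 46649.5 and 41462.7 against 65124.2 and 65287.7. The one that fell, Retn, read 1364.8 and 1461.9 against 550.2 and 662.1 (log2 change -1.23). Skeletal muscle markers, whose tissue shares Slc2a4, Hk2, Gys1 and Pygm, fell in 5 of 9 cases and rose in 1, Ckm, which heart also expresses (sums of 22768 to 23054 against 17428 to 17617). The part of these cell types in the members' changes was not tested.

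The remaining lists were mixed. Lung epithelium markers rose in 2 of 2 cases and fibroblast markers in 5 of 5, smooth muscle markers rose in 1 of 4, and 1 of 7 macrophage markers fell and none rose.

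**Figure D5:**
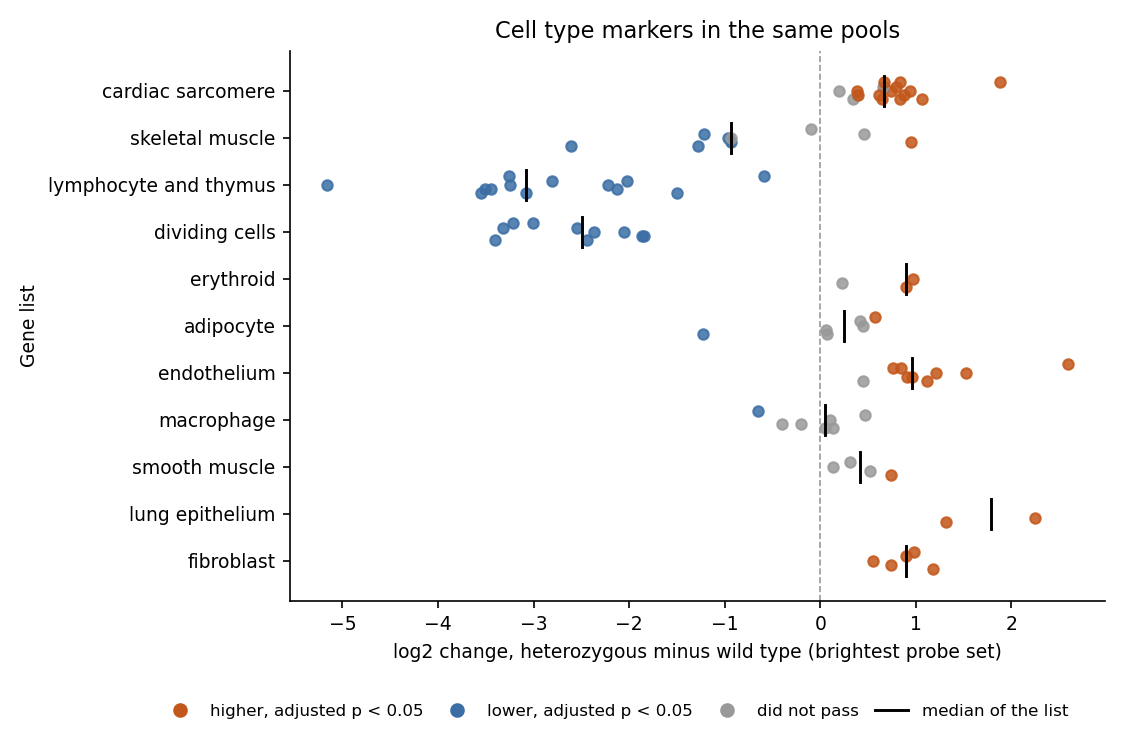
Log2 change, heterozygous minus wild type, of cell type markers on the brightest probe set of each gene; colours give the call at an adjusted p under 0.05 and black bars the median of each list. Lymphocyte and thymus markers lie to the left of 0, with a median of -3.08. Sarcomere and endothelial markers lie to the right, with medians of 0.67 and 0.96, though not all of them passed.

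The genes with the profile nearest to Slc2a4 over the 4 pools, by Euclidean distance between centred log2 signals among 5691 other genes, were Oxct1 (0.027), Trp53inp2 (0.052) and Cebpb (0.068). Oxct1 encodes the enzyme that lets heart use ketone bodies, and Cebpb a transcription factor. Oxct1 had signals of 9187.8 and 7794.0 in the wild type and 19220.8 and 20885.6 in the heterozygous pools, with the same order of pools as Slc2a4. Nearest to Slc2a1 were Tff1 (0.071), Csf3r (0.078) and Ifih1 (0.086), each highest in wild-type pool 2 and none of them past the threshold. The distances are descriptions over 4 pools.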

How the data were processed

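Total RNA of 4 pools of hearts (2 per genotype, grouped by the sample titles) was measured on 1-colour oligonucleotide arrays. The authors deposited 1 linear signal intensity for each probe set on each array; the sources used here do not give the software behind it. Their trimmed means (2% cut at each end) differed 1.01 times at most, below a limit of 1.05, so the values were used unscaled. After removal of 66 controls, the 40% of probe sets with the lowest mean were left untested (4969), and signals below 36.25, the 10th percentile, were set to that floor before taking log2. Genotype was fitted over 7453 probe sets with limma 3.58.1 in R 4.3.3 (lmFit, eBayes with a mean-variance trend), with Benjamini-Hochberg adjustment over all of them and a two-sided threshold of 0.05. Precision is limited by the number of arrays. Probe sets were named where the platform annotation gave 1 symbol (10855; 396 had several and 1237 none), and 10839 of these were matched by gene ID to GRCm38.p6. A gene is read on its brightest probe set.

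Members and lists were chosen with earlier results of these data known. Named genes are the members, up to 3 genes with the smallest p and 2 bright genes that did not pass in each group of the list, bright markers, and the 3 genes nearest to Slc2a4 and to Slc2a1. Alternatives were other scalings, floors, filters, moderation, thresholds, a replicate block and each pool left out. Promoter windows come from RefSeq. Plots were drawn with matplotlib 3.10.9.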

Additional observations from a re-analysis of the deposited data

How the results depend on the processing

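The number of the 7 members' probe sets called, 6 on the deposited scale, stayed between 4 and 6 under the 16 alternatives. Slc2a4, Gys1 and Pygm passed as higher in all of them. Calls over all tested probe sets numbered 2856 and moved to 4509 with arrays centred on sarcomere genes (158 higher), 1206 without the filter on dim probe sets, 1659 at a threshold of 0.01, and 1707 to 2289 with 1 pool left out. In the list of other pathway genes, 19 calls became 9 without the filter, 12 at a threshold of 0.01, and 10 to 17 with 1 pool left out. Higher calls were 46.8% of all calls, 58.5% with a common median and 3.50% with sarcomere centring. Over all tested probe sets the median change moved to 0.13 with a common median, 0.11 under quantile normalization and -0.72 with sarcomere centring.

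Sarcomere centring turned the sign of Ugp2 (-0.06), Slc2a8 (-0.20), Gyg (-0.34), Ppp1cb (-0.56), Gaa (-0.02), Phkg2 (-0.60), Rhoq (-0.07) and Mef2a (-0.01), as a shift of all genes does. Stx4a turned to 0.12 with a common median and 0.01 under quantile normalization, and Ppp1cb to -0.06 under cyclic loess. With 1 pool left out, Ppp1cb ran from -0.11 to 0.42, Phkg2 from -0.30 to 0.53 and Stx4a from -0.26 to 0.24. The replicate block (pool number) gave 3035 calls and the same 6 member calls; equal numbers are not stated to pair pools, and deviations of equally numbered pools correlated at 0.158. Leaving out 1 pool leaves a lone sample assumed to vary like the other genotype. The cause of these changes was not tested.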

Other observations

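A few genes of insulin signalling and glucose control were too dim on average to be tested, and their signals are given as values picked after they were seen. Irs2, an adaptor of the insulin receptor, had signals of 94.4 and 74.7 in the wild type and 337.3 and 205.0 in the heterozygous pools, while Irs1, its paralog, had 229.2 and 209.1 against 145.6 and 173.7. Ppard, a nuclear receptor of fatty acid use, had 44.3 and 52.2 against 300.4 and 128.8, with its wild-type signals near the floor of 36.25. Slc2a3, a neuronal glucose transporter, had 328.4 and 189.8 against 74.0 and 89.7 on one probe set and overlapped on another, with 70.7 and 161.3 against 111.7 and 125.5. Ppargc1a, a coactivator that raises Slc2a4 in muscle, had 207.3 and 322.1 against 387.2 and 378.7. The insulin receptor gene Insr stayed near the floor, at 50.5 to 76.4 in all 4 pools.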
